A study of Mus musculus with 6 samples.

Results

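The 46 genes described here carry out the G2 phase and mitosis. They were chosen by name, as the rows of the expression table whose gene symbol is on a list of 6 classes: kinases and cyclins (11 genes), checkpoint and anaphase genes (9), kinetochore and centromere genes (8), spindle, kinesin and cytokinesis genes (9), condensin and chromosome genes (7) and transcription factors (2). All 46 were found among the 54331 genes of the table, and all 46 were among the 15382 genes that passed the filter on low values, an average of 1 TPM or more (TPM is the share of all transcripts in a library, corrected for their length). The data are RNA-seq of mouse embryonic fibroblasts (MEFs) that were being reprogrammed to induced pluripotent stem cells and were taken at 10 days post infection (dpi). The MEFs came from pooled male E13.5 embryos on a mixed C57BL/6, DBA/2 and ICR background and carried an Oct4-EGFP reporter. Cells of both groups received retroviruses for Oct4, Sox2 and Klf4 and for AKT-MER, a myristoylated AKT kinase fused to a modified estrogen receptor, and are called OSKA. The OSKA + 4OHT group (3 wells) then received 4-hydroxytamoxifen (4OHT), which switches AKT-MER on, and the OSKA - 4OHT group (3 wells) received the ethanol vehicle. The cells were infected before they were plated into the wells, so the p-values measure the spread between wells. No library of cells with 4OHT but without AKT-MER was analysed here, so that the ligand and the activated kinase cannot be told apart.

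As background, entry into mitosis is driven by the CDK1 kinase bound to cyclin B, with the help of the Polo and Aurora kinases. Condensin then compacts the chromosomes, the kinetochores attach them to the spindle, a checkpoint holds the cell until every chromosome is attached, and the anaphase-promoting complex (APC/C) marks cyclin B and securin for destruction so that the sister chromatids part. Most genes of this programme are transcribed late in the cell cycle: the DREAM complex keeps them silent in resting cells, and B-MYB and FOXM1, which bind with the MuvB core, activate them in G2. Their RNA is commonly read as a mark of dividing cells.

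The summed level of the G2 and mitosis genes was higher in AKT-activated cells. Added up over the 46 genes, the level was 1468, 1631 and 1350 TPM in the OSKA - 4OHT wells and 2646, 2891 and 2623 TPM in the OSKA + 4OHT wells, which gave a mean of 1483 ± 141 TPM (SD, n = 3) without and 2720 ± 149 TPM (SD, n = 3) with 4OHT. The sums of the 2 groups did not overlap. Of the 46 genes, 45 had a log2 fold change above 0, where 59.3% of all genes tested did, and *Pttg1* alone was below 0. The median log2 fold change of the 46 genes was 0.89 and that of all genes tested 0.14, on the scale of log2(TPM + 0.5) used throughout. In bulk RNA, more cells of a type and more RNA per cell cannot be told apart.

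At an adjusted p-value under 0.05 (limma-trend, Benjamini-Hochberg over all genes tested), 14 of the 46 genes rose, where 3.52% of all genes tested were called higher. No member fell, where 1.97% of all genes tested were called lower. No member was lower at an unadjusted p-value under 0.05, where 7.18% of all genes were. Of the 14, 11 rose by more than 2-fold, where 2.87% of all genes did so. At an unadjusted p-value under 0.05, 34 members were higher, where 14.1% of all genes were. In 35 members every OSKA + 4OHT well lay above every OSKA - 4OHT well, where 18.1% of all genes had such a separation, and in the other 11 the groups overlapped. The called genes are *Mybl2*, *Ube2c*, *Cks2*, *Plk1*, *Ccnb1*, *Prc1*, *Cdk1*, *Spc25*, *Top2a*, *Hmmr*, *Kif11*, *Cdc20*, *Cenpf* and *Birc5*, in descending order of their fold change. The count fell whichever well was left out, and so did that of all genes, of which 542 were called higher with every well. It was 9, 6 and 10 members without OSKA - 4OHT replicate 1, 2 and 3, where 272, 231 and 318 of all genes were called higher. It was 6, 5 and 10 members without OSKA + 4OHT replicate 1, 2 and 3, where 112, 123 and 285 of all genes were. *Mybl2*, *Ube2c*, *Cks2*, *Plk1* and *Cdk1* were called in all 6 of these fits, *Spc25* in 5, *Prc1* and *Top2a* in 3, *Ccnb1* in 2, *Cdc20* and *Hmmr* in 1, and *Kif11*, *Cenpf* and *Birc5* in 0. Rescaling the libraries by median-of-ratios or by quantiles moved the share of higher genes among all called genes from 64.1% to 49.7% under each. Under each, 12 members were called higher, where 462 and 428 of all genes were, and the 45 members stayed above 0. *Cenpf* and *Birc5* were the members that lost their call. The median of the members stood above that of all genes by 0.75 as deposited and by 0.74 and 0.75 under the 2 scalings. With a replicate block only *Mybl2* among the members was called higher, where 31 of all genes were. The replicate numbers were not taken to pair the wells, for the reason given in the last section.

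**Figure D1:**
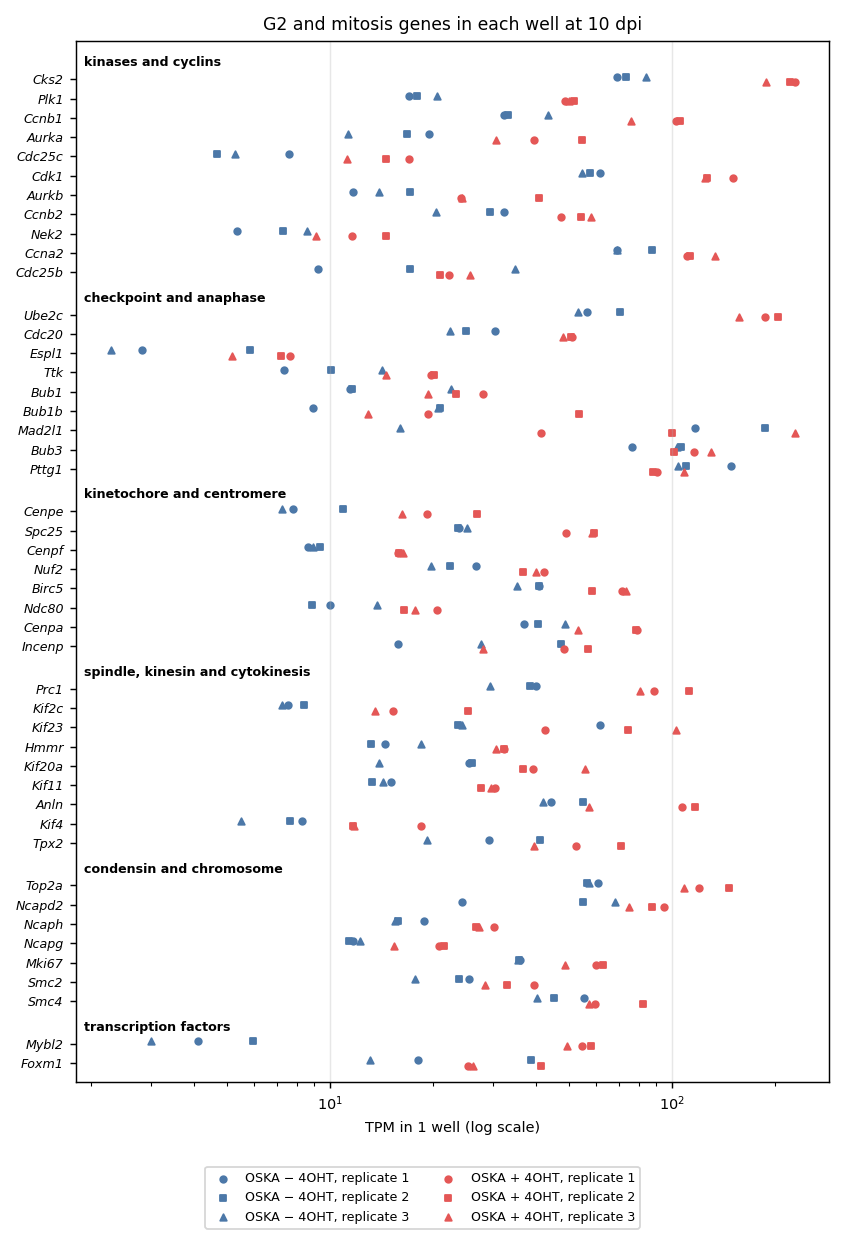
Level of each of the 46 genes in every well, in TPM on a log axis, grouped by class and ordered within a class by fold change. Blue marks are the OSKA - 4OHT wells and red marks the OSKA + 4OHT wells, with 1 marker shape per replicate number. The red marks lie to the right of the blue marks in 35 genes, and in the other 11, *Mad2l1* and *Pttg1* among them, the groups overlap.

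**Figure D2:**
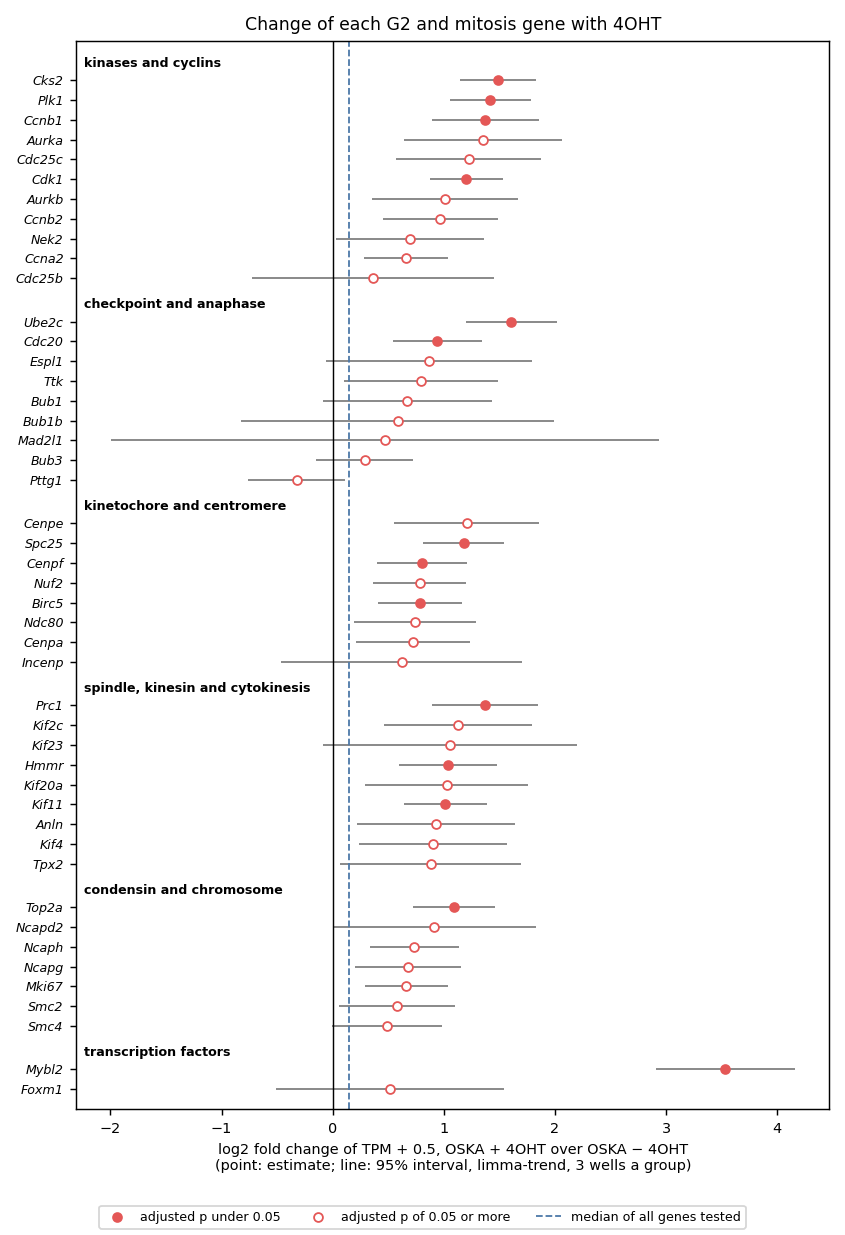
Log2 fold change of each gene, OSKA + 4OHT over OSKA - 4OHT, with the 95% interval of limma-trend from 3 wells a group. Filled points have an adjusted p-value under 0.05, and the dashed line is the median of all 15382 genes tested, 0.14. The points of 45 genes lie above 0, and *Mybl2* at 3.53 lies apart from the rest.

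The promoters of these genes are shown next because many genes of this programme are known to share 2 promoter elements: the cell cycle genes homology region (CHR), which MuvB complexes recognise, and CCAAT boxes, which NF-Y binds. Promoter windows of RefSeq (GRCm38.p6), 250 bases before to 50 bases after the transcript start, were matched by symbol for 38 of the 46 genes and gave 40 windows, since *Bub3* and *Prc1* have 2 each. No window was matched for *Aurkb*, *Ccna2*, *Cdc25c*, *Incenp*, *Kif20a*, *Tpx2*, *Smc4* and *Foxm1*. The windows were searched on both strands for TTTGAA (CHR), CCAAT (NF-Y box) and the E2F letters TTTCCCGC, TTTGGCGC and TTTCGCGC. No motif contains another, and matches of different motifs may share their end letters. A match is a description of the letters and not a site in use.

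TTTGAA was found in 28 of the 40 windows, or 70.0%, and in 17.9% of the 32851 windows of all genes. CCAAT was found in 77.5% of the members' windows and in 37.4% of all windows, and at least 2 copies were found in 20 of the 40 and in 11.7% of all windows. Windows with both TTTGAA and CCAAT made up 62.5% of the members' windows and 6.95% of all windows. The E2F letters were found in 3 of the 40 windows, those of *Cdk1*, *Ncapd2* and *Ncapg*, and in 1.84% of all windows. Positions were compared over the genes with a single window, 36 members and 22862 genes in all. The median distance of TTTGAA from the transcript start was -3.5 bases over 30 matches in the members and -122 bases over all genes, and 83.3% and 42.2% of the matches lay between -100 and 50 bases. For CCAAT the median distance was -65.0 bases over 62 matches in the members and -88.5 bases over all genes, with 66.1% and 55.1% of the matches in that range. In the shorter window of 150 bases before to 50 after, TTTGAA was found in 67.5% of the members' windows and 11.2% of all windows, and CCAAT in 72.5% and 28.6%. Among the other lists, TTTGAA was found in 53.7% of the 67 windows of other G2 and mitosis genes, 36.4% of the 11 of MuvB and DREAM factors, 12.5% of the 8 of cohesin, 11.8% of the 17 of the APC/C and 11.1% of the 27 of G1/S and replication genes. In the shorter window these shares were 49.3%, 9.09%, 12.5%, 5.88% and 11.1%, in the same order. CCAAT was found in 65.7% of the windows of other G2 and mitosis genes, 63.0% of those of G1/S and replication genes, 4 of the 8 of cohesin, 41.2% of those of the APC/C and 36.4% of those of MuvB and DREAM factors.

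The following promoters belong to the called gene with the largest fold change in each class among those with TTTGAA in the window, so they were chosen with their fold changes known. Each is given on the strand of its gene, 5′ to 3′, from 150 bases before to 50 bases after the RefSeq transcript start, with TTTGAA and CCAAT or their reverse complements TTCAAA and ATTGG in capitals. *Plk1* (chr7:122159285-122159484, plus strand) has 1 TTTGAA and 1 CCAAT in this stretch. *Ube2c* (chr2:164769779-164769978, plus strand) has 1 TTTGAA and 2 CCAAT. *Spc25* (chr2:69206164-69206363, minus strand) also has 1 and 2. *Prc1* (chr7:80294326-80294525, plus strand) has 1 and 1 in the window shown, and *Top2a* (chr11:99024140-99024339, minus strand) has 1 TTTGAA and 4 CCAAT.
Plk1: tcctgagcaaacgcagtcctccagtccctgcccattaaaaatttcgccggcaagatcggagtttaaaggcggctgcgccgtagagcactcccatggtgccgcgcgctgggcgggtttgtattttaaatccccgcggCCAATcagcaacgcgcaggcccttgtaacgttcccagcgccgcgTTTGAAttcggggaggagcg
Ube2c: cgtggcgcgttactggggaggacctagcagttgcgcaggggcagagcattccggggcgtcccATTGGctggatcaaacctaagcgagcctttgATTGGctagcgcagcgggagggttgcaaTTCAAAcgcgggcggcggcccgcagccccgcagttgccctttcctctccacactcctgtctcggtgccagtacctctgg
Spc25: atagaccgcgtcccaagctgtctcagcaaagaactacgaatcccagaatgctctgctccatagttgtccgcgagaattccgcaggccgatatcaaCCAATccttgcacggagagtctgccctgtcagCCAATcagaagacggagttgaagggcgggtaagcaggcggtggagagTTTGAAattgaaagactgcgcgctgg
Prc1: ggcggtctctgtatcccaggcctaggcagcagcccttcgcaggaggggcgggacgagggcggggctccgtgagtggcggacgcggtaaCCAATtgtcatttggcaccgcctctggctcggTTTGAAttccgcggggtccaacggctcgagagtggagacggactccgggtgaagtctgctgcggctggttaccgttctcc
Top2a: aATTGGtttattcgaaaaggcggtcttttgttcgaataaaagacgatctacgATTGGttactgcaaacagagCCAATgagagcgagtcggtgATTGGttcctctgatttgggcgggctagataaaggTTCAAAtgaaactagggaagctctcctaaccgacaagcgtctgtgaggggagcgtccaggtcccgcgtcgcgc

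In the stretches printed, the CCAAT letters lie before TTTGAA in the direction of transcription. In the longer window searched, *Top2a* has another TTTGAA, at -176 bases, which lies before 4 of its 6 CCAAT matches. The 26 genes with TTTGAA had log2 fold changes from 0.29 to 1.61 with a median of 0.94 and 10 called, where all genes tested had a median of 0.14 and 3.52% called higher. The 12 genes without it ranged more widely, from -0.32 to 3.53, with a median of 0.76 and 4 called, and the difference was not tested. *Birc5*, *Mad2l1*, *Mybl2*, *Ncaph*, *Nuf2* and *Pttg1* had neither TTTGAA nor CCAAT in the window, and the 6 include both the largest fold change, that of *Mybl2*, and the lowest, that of *Pttg1*.

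**Figure D3:**
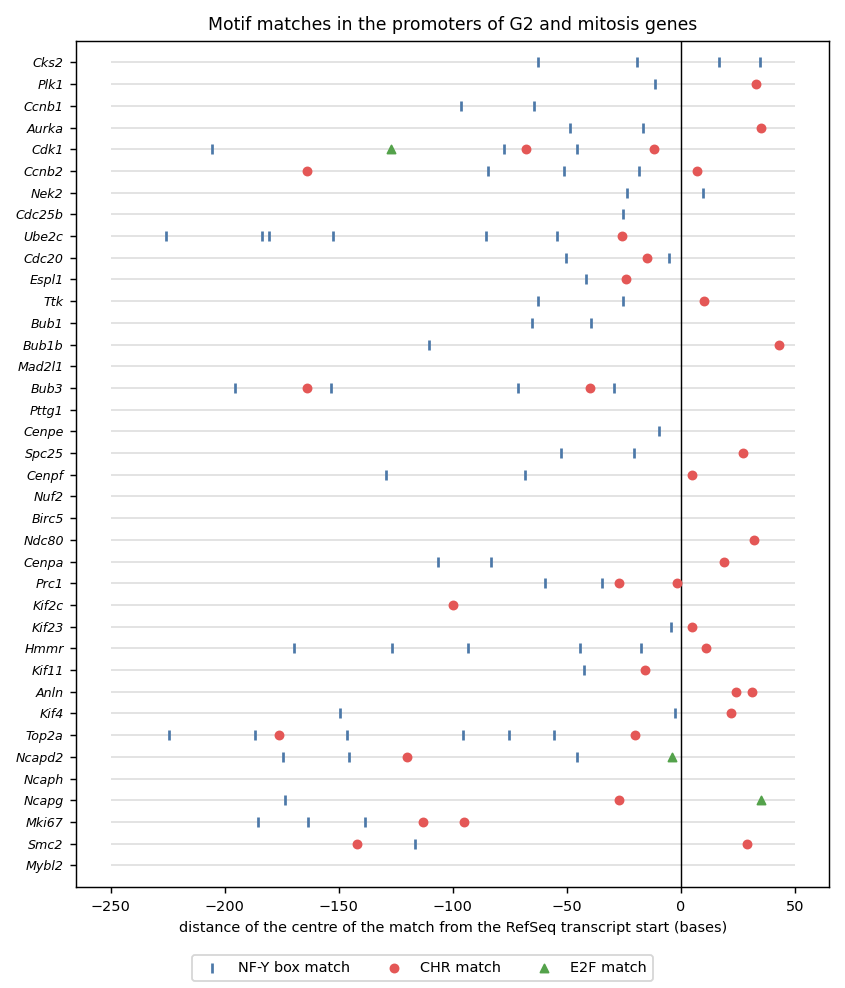
Positions of the matches in the promoter windows of 38 genes, in bases from the RefSeq transcript start (vertical line at 0), with windows of the same gene on 1 row. Blue ticks are CCAAT letters (NF-Y box), red points TTTGAA (CHR) and green triangles E2F letters. Of 34 red points, overlapping windows of *Bub3* and *Prc1* included, 28 lie between -100 and 50 bases, and 6 rows are empty.

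The kinases and cyclins had a median log2 fold change of 1.20, the highest of the 5 classes of 7 genes or more, with 4 of 11 genes called (3.52% of all genes) and 10 of 11 without overlap between the groups (18.1% of all genes). *Cks2*, a small subunit that binds CDK1 and helps it reach its substrates, rose from 69.4, 73.6 and 84.2 TPM to 229, 222 and 189 TPM (log2 fold change 1.49 ± 0.141, SE, adjusted p = 0.00502). *Plk1*, the Polo kinase that acts at mitotic entry, on spindle poles and at kinetochores, rose from 17.0, 17.98 and 20.5 TPM to 48.7, 51.7 and 50.1 TPM (1.42 ± 0.151, adjusted p = 0.00697). The wells within a group differed by little in *Plk1*, and its lowest OSKA + 4OHT well stood well above its highest OSKA - 4OHT well. *Cdk1*, the mitotic kinase itself, rose from 61.5, 57.6 and 54.5 TPM to 151, 127 and 125 TPM (1.20 ± 0.137, adjusted p = 0.00879). *Ccnb1*, its cyclin partner, rose from 32.3, 33.1 and 43.5 TPM to 103, 106 and 76.3 TPM (1.37 ± 0.200, adjusted p = 0.0174). OSKA + 4OHT replicate 3 was the lowest of its group for *Ccnb1* and OSKA - 4OHT replicate 3 the highest of its own, and the groups still did not overlap.

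The remaining kinases and cyclins did not pass the threshold. *Aurka*, the Aurora kinase of the spindle poles, was at 19.6, 16.8 and 11.3 TPM without and 39.5, 54.6 and 30.7 TPM with 4OHT (log2 fold change 1.35, adjusted p = 0.0539). *Aurkb*, the kinase of the chromosomal passenger complex, was at 11.7, 17.1 and 13.9 TPM against 24.2, 40.8 and 24.3 TPM (1.01, adjusted p = 0.0923). In both Aurora kinases OSKA + 4OHT replicate 2 was the highest and the groups did not overlap. *Ccnb2*, the other main cyclin B, was at 32.3, 29.5 and 20.4 TPM against 47.5, 54.3 and 58.0 TPM (0.97, adjusted p = 0.0564). *Ccna2*, the cyclin of S phase and G2, had a smaller difference, from 69.3, 87.9 and 69.2 TPM to 111, 114 and 134 TPM (0.66, adjusted p = 0.0656). The 2 phosphatases that activate CDK1 gave unlike values. *Cdc25c* was at 7.62, 4.69 and 5.29 TPM against 17.0, 14.6 and 11.2 TPM (1.22, adjusted p = 0.0564), with no overlap. *Cdc25b* was at 9.25, 17.2 and 34.7 TPM against 22.2, 21.1 and 25.7 TPM (0.36, 95% interval -0.73 to 1.45, adjusted p = 0.686). Its OSKA - 4OHT wells spanned all 3 OSKA + 4OHT wells, and its log2 fold change was -0.090 without OSKA - 4OHT replicate 1. *Nek2*, a kinase that parts the centrosomes, was at 5.35, 7.29 and 8.59 TPM against 11.6, 14.6 and 9.14 TPM (0.70, adjusted p = 0.215).

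The checkpoint and anaphase genes had the most overlap between the groups of any class, with a median log2 fold change of 0.67, 2 of 9 genes called (3.52% of all genes) and 3 of 9 without overlap (18.1% of all genes). The called genes are both on the side of the APC/C. *Ube2c*, the ubiquitin-conjugating enzyme that works with the APC/C, rose from 56.4, 70.4 and 53.2 TPM to 188, 205 and 158 TPM (1.61 ± 0.170, SE, adjusted p = 0.00685). *Cdc20*, the activator that the checkpoint holds back, rose from 30.5, 25.0 and 22.5 TPM to 51.0, 50.9 and 48.2 TPM (0.94 ± 0.167, adjusted p = 0.0307). The OSKA + 4OHT wells of *Cdc20* lay within 3 TPM of each other.

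The genes of the spindle checkpoint itself were not called. *Bub1*, a checkpoint kinase of the kinetochore, was at 11.5, 11.6 and 22.7 TPM against 28.2, 23.4 and 19.4 TPM (0.67, adjusted p = 0.286), and its highest OSKA - 4OHT well lay above its lowest OSKA + 4OHT well. *Bub1b*, which encodes BUBR1, was at 8.91, 20.9 and 20.7 TPM against 19.4, 53.5 and 12.9 TPM (0.58, adjusted p = 0.607). *Ttk*, the kinase MPS1 that starts the checkpoint signal, was at 7.34, 10.1 and 14.2 TPM against 19.8, 20.2 and 14.6 TPM (0.79, adjusted p = 0.181). Of these 3 genes only *Ttk* had groups that did not overlap, by a narrow margin. *Bub3*, the partner of BUB1 and BUBR1, was at 76.4, 106.5 and 103 TPM against 116, 101 and 130.4 TPM (0.29, adjusted p = 0.431). *Mad2l1*, the inhibitor of CDC20, was at 117, 188 and 16.0 TPM against 41.4, 100.4 and 229.8 TPM (0.47, 95% interval -1.998 to 2.94, adjusted p = 0.829). *Mad2l1* had the widest interval of the members: its lowest OSKA - 4OHT well and its highest OSKA + 4OHT well were both replicate 3. Its log2 fold change was -0.59 without OSKA - 4OHT replicate 3 and -0.14 without OSKA + 4OHT replicate 3. The annotated transcripts of *Mad2l1* run from 229 to 7557 bases.

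The inhibitor and the protease of sister chromatid separation differed in sign. *Pttg1*, which encodes securin, was at 149.6, 110.4 and 104 TPM without and 90.7, 88.4 and 109 TPM with 4OHT (log2 fold change -0.32, 95% interval -0.76 to 0.11, adjusted p = 0.369), and its groups overlapped. *Espl1*, the separase that securin holds inactive, was at 2.81, 5.85 and 2.28 TPM against 7.62, 7.20 and 5.18 TPM (0.87, adjusted p = 0.264), the lowest mean level of the 46 genes in each group. Neither passed the test, and the difference between the 2 genes was not tested.

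Among the kinetochore and centromere genes the median log2 fold change was 0.78, 3 of 8 genes were called (3.52% of all genes) and 7 of 8 did not overlap (18.1% of all genes). *Spc25*, a subunit of the NDC80 complex that holds microtubules, rose from 23.9, 23.8 and 25.1 TPM to 49.0, 59.5 and 58.6 TPM (1.18 ± 0.150, SE, adjusted p = 0.0118). *Birc5*, which encodes survivin of the chromosomal passenger complex, rose from 41.0, 40.8 and 35.3 TPM to 71.4, 58.4 and 73.5 TPM (0.78 ± 0.158, adjusted p = 0.0439). *Cenpf*, a large protein of the outer kinetochore in G2 and M, rose from 8.62, 9.35 and 8.95 TPM to 15.8, 15.9 and 16.3 TPM (0.80 ± 0.168, adjusted p = 0.0484). *Birc5* and *Cenpf* were not called under median-of-ratios or quantile scaling, nor in any fit without 1 well. The OSKA + 4OHT wells of *Cenpf* had a coefficient of variation of 1.71%, the lowest of the 46 genes in that group. The other NDC80 subunits among the 46 genes had values of the same sign. *Nuf2* was at 26.8, 22.4 and 19.8 TPM against 42.4, 36.8 and 40.0 TPM (0.78, adjusted p = 0.0564). *Ndc80* was at 10.0, 8.85 and 13.8 TPM against 20.6, 16.5 and 17.7 TPM (0.74, adjusted p = 0.126). The remaining subunit, *Spc24*, is not among the 46 genes but on a list of other G2 and mitosis genes and is named after its values were seen: it rose from 5.99, 10.4 and 7.36 TPM to 32.6, 39.8 and 22.5 TPM (1.93, adjusted p = 0.0204). *Spc24* was called in 2 of the 6 fits without 1 well, with adjusted p-values from 0.0355 to 0.0895 (limma-trend). *Cenpe*, the kinesin that moves chromosomes to the spindle equator, was at 7.83, 11.0 and 7.26 TPM against 19.2, 27.0 and 16.2 TPM (1.20, adjusted p = 0.0574). *Cenpa*, the histone H3 variant of centromeres, was at 37.0, 40.6 and 48.6 TPM against 79.0, 78.7 and 53.2 TPM (0.72, adjusted p = 0.116). *Incenp*, the scaffold that joins survivin to Aurora B, overlapped, with 15.8, 47.6 and 27.6 TPM against 48.6, 56.8 and 28.0 TPM (0.62, adjusted p = 0.496).

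Of the spindle, kinesin and cytokinesis genes 3 of 9 were called (3.52% of all genes) and 7 of 9 did not overlap (18.1% of all genes), with a median log2 fold change of 1.02. *Prc1*, which bundles microtubules at the middle of the anaphase spindle, rose from 40.2, 38.4 and 29.5 TPM to 88.6, 113 and 80.9 TPM (1.37 ± 0.197, SE, adjusted p = 0.0167). *Hmmr*, a spindle pole protein, rose from 14.5, 13.2 and 18.5 TPM to 32.4, 32.4 and 30.6 TPM (1.04 ± 0.184, adjusted p = 0.0308). *Kif11*, the kinesin that pushes the spindle poles apart, rose from 15.1, 13.3 and 14.3 TPM to 30.3, 27.6 and 29.7 TPM (1.01 ± 0.156, adjusted p = 0.0202). In these 3 genes the lowest OSKA + 4OHT well was above the highest OSKA - 4OHT well by more than the range of the OSKA - 4OHT wells.

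The other genes of this class had log2 fold changes from 0.88 to 1.13 and were not called. *Kif2c*, which takes tubulin off microtubule ends, was at 7.53, 8.38 and 7.25 TPM against 15.3, 25.4 and 13.6 TPM (1.13, adjusted p = 0.0705). *Kif20a*, a kinesin of cytokinesis, was at 25.5, 26.1 and 13.9 TPM against 39.4, 36.8 and 55.9 TPM (1.02, adjusted p = 0.117). *Kif23*, the kinesin of the centralspindlin complex, was at 61.6, 23.7 and 24.4 TPM against 42.6, 74.4 and 103 TPM (1.05, adjusted p = 0.270). The highest OSKA - 4OHT well of *Kif23* lay above its lowest OSKA + 4OHT well, so its groups overlapped. *Kif4*, the chromosome-bound kinesin that works with PRC1, was at 8.31, 7.63 and 5.51 TPM against 18.4, 11.7 and 11.7 TPM (0.90, adjusted p = 0.126). *Anln*, which encodes anillin of the contractile ring, was at 44.2, 55.0 and 42.0 TPM against 107, 117 and 57.4 TPM (0.93, adjusted p = 0.136), and was called without OSKA + 4OHT replicate 3 (adjusted p = 0.0391). *Tpx2*, the activator of Aurora A on the spindle, was at 29.1, 41.1 and 19.2 TPM against 52.4, 71.2 and 39.5 TPM (0.88, adjusted p = 0.205), and its level in OSKA + 4OHT replicate 3 lay just below that in OSKA - 4OHT replicate 2.

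All 7 condensin and chromosome genes separated the groups without overlap in the deposited values (18.1% of all genes), *Mki67* with the limit given below, and 1 of 7 was called (3.52% of all genes), with a median log2 fold change of 0.67. *Top2a*, the topoisomerase that untangles sister chromatids, rose from 61.1, 56.5 and 57.4 TPM to 121, 147 and 109 TPM (1.09 ± 0.153, SE, adjusted p = 0.0154). *Mki67*, the proliferation antigen Ki-67 that coats mitotic chromosomes, was at 36.0, 35.7 and 35.6 TPM against 59.9, 63.0 and 48.6 TPM (0.66, adjusted p = 0.0643). The OSKA - 4OHT wells of *Mki67* were nearly equal, with a coefficient of variation of 0.660%, the lowest of the 46 genes in that group. Its near-identical copy *Gm44521* was listed at 79.9 TPM in OSKA - 4OHT replicate 2. With the copy added in proportion to its length, that well was at 37.4 TPM on the length of the longest *Mki67* transcript and at 65.9 TPM on that of the shortest, and the ratio of means was 1.57 or 1.25 in place of 1.60. On the shortest length the groups of *Mki67* overlapped. The core subunits of condensin, *Smc2* and *Smc4*, had log2 fold changes of 0.58 (adjusted p = 0.190) and 0.49 (adjusted p = 0.239). *Smc2* was at 25.5, 23.9 and 17.7 TPM against 39.6, 33.0 and 28.4 TPM, and *Smc4* at 55.2, 45.3 and 40.5 TPM against 59.8, 82.5 and 57.2 TPM. The condensin I subunits, *Ncaph* (15.5 to 18.9 TPM against 26.8 to 30.2 TPM), *Ncapg* (11.4 to 12.2 against 15.4 to 21.5) and *Ncapd2* (24.4 to 68.2 against 75.2 to 94.8), had log2 fold changes of 0.74, 0.67 and 0.91 and adjusted p-values of 0.0592, 0.115 and 0.235. *Ncapd2* varied most of the 3 between OSKA - 4OHT wells.

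The 2 transcription factors gave unlike results. *Mybl2* (chr2:163054687-163084688, plus strand, GRCm38), which encodes B-MYB, had the largest change of the 46 genes, from 4.13, 5.96 and 3.01 TPM to 54.8, 58.2 and 49.5 TPM (log2 fold change 3.53 ± 0.261, SE, adjusted p = 0.00361). Every OSKA + 4OHT well was far above every OSKA - 4OHT well, the ratio of the group means was 12.4, and 99.5% of all genes tested had a lower log2 fold change. *Foxm1* was at 18.1, 38.9 and 13.1 TPM against 25.4, 41.6 and 26.2 TPM (0.51, 95% interval -0.51 to 1.54, adjusted p = 0.546), with overlapping groups and replicate 2 the highest in both.

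Other genes of the pathway were read from 5 further lists. Of 72 other G2 and mitosis genes, 70 had a log2 fold change above 0 (59.3% of all genes tested), 14 rose (3.52% of all genes), 0 fell (1.97% of all genes) and 46 had every OSKA + 4OHT well above every OSKA - 4OHT well (18.1% of all genes), with a median of 0.93. *Kif15*, a kinesin that supports the bipolar spindle, had the largest called change of that list, from 5.17, 10.9 and 3.62 TPM to 28.3, 18.5 and 39.2 TPM (log2 fold change 2.12, adjusted p = 0.04996). Of 30 G1/S and replication genes, 29 had a log2 fold change above 0 (59.3% of all genes tested), with a median of 0.75. In that list 4 rose (3.52% of all genes) and 0 fell (1.97% of all genes). In 18 of the 30 every OSKA + 4OHT well lay above every OSKA - 4OHT well (18.1% of all genes). *Gins2*, a subunit of the replicative helicase, led the 4, from 5.07, 7.56 and 3.62 TPM to 19.9, 19.1 and 15.5 TPM (1.71, adjusted p = 0.0288). Fewer genes of both lists were called whichever well was left out, 0 to 5 of the 72 and 0 to 1 of the 30. Of all genes, 175 to 465 were then called in place of 845.

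The APC/C subunits and cohesin had medians nearer that of all genes. Of 15 APC/C subunits and activators 1 was called higher, a share near the 3.52% of all genes and so no result about the list, and 0 were called lower, with a median log2 fold change of 0.19. The called gene, *Fzr1*, which encodes CDH1, the activator that follows CDC20, was at 20.2, 18.4 and 15.9 TPM against 36.4, 33.4 and 29.0 TPM (0.84, adjusted p = 0.0499) and was called in none of the fits without 1 well. Of 12 cohesin subunits and regulators 0 were called, 2 were higher at an unadjusted p-value under 0.05, a share near the 14.1% of all genes, and the median was 0.28. *Ube2c* and *Cdc20* thus rose while the median of the list of the complex they work with was 0.19, and this difference was not tested.

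Of 12 MuvB and DREAM factors 0 were called, 4 were higher (14.1% of all genes) and 1 lower (7.18% of all genes) at an unadjusted p-value under 0.05, and the median was 0.50. The extremes were named after their values were seen. *Mybl1*, the A-MYB relative of *Mybl2*, was at 14.0, 23.1 and 12.5 TPM against 33.6, 45.6 and 36.8 TPM (1.24, adjusted p = 0.0543). *Tfdp2*, a dimerisation partner of E2F proteins, was at 32.3, 39.3 and 26.0 TPM against 18.8, 15.7 and 10.8 TPM (-1.10, adjusted p = 0.0709), and *Rbl2*, which encodes the pocket protein p130 of DREAM, was at 26.6, 31.0 and 15.4 TPM against 10.9, 11.1 and 19.0 TPM (-0.80, adjusted p = 0.254). The groups of *Mybl1* and *Tfdp2* did not overlap and those of *Rbl2* did.

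**Figure D4:**
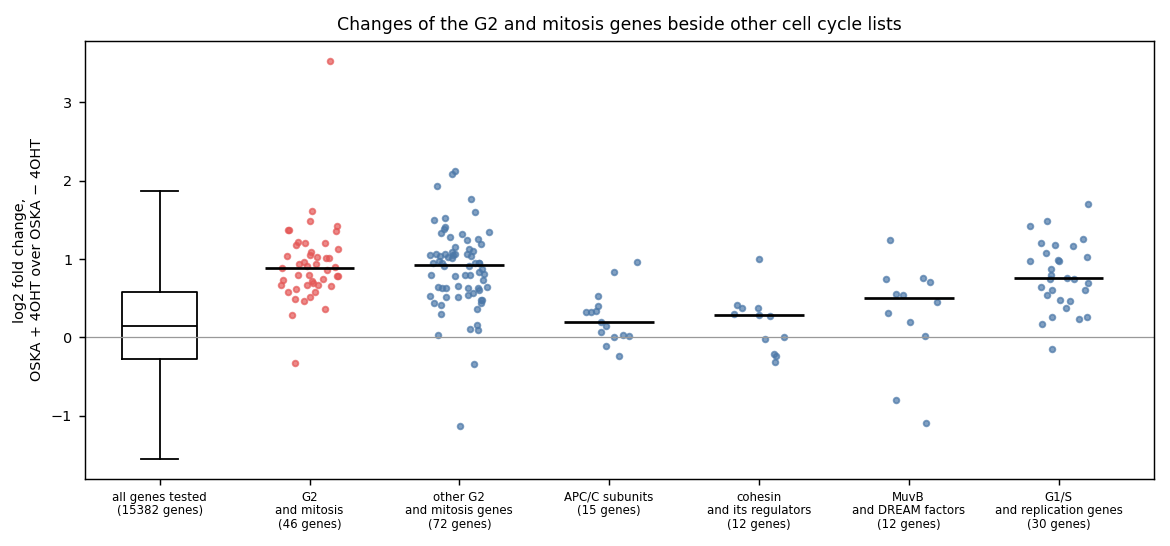
Log2 fold change, OSKA + 4OHT over OSKA - 4OHT, of the 46 G2 and mitosis genes (red points) and of 5 other lists (blue points), with a line at each median. The box gives the quartiles of all 15382 genes tested, with whiskers to 1.5 times the box height and genes beyond them not drawn. The medians are 0.89 for the members, 0.93 for the other G2 and mitosis genes, 0.75 for the G1/S and replication genes, and 0.19, 0.28 and 0.50 for the APC/C, cohesin and MuvB lists.

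Some members share sequence with other genes, so their levels depend on how reads were divided. The library kit keeps the strand, and whether the quantification used it is not given in the sources used here. Transcripts on the same strand with at least 95% identity over at least 200 bases were found for *Ccnb1*, *Cks2*, *Mad2l1*, *Mki67* and *Mybl2*. For *Mybl2* the copy *Gm3320* (99.7% over 742 bases) was listed at 0 in the OSKA - 4OHT wells and at 7.99, 9.09 and 14.6 TPM in the OSKA + 4OHT wells, and with the copy added in proportion to its length the ratio of means was 13.1 on the longest and 16.5 on the shortest *Mybl2* transcript. For *Cks2* the copies reached 30.1 TPM in OSKA + 4OHT replicate 1 and 31.6 TPM in replicate 3 and were listed at 0 in all others, and with the copies added by length the ratio was 2.91 against 2.82 for *Cks2* alone. For *Mki67* the copy *Gm44521* was listed at 79.9 TPM in OSKA - 4OHT replicate 2 and at 0 elsewhere, and the values with it added are given above. The copies of *Ccnb1* and *Mad2l1* were at 3.30 TPM or below in every well. Opposite-strand overlaps of 282 to 979 bases were found for *Ccna2*, *Cdc25c*, *Kif20a*, *Kif4*, *Ncapg* and *Nek2*. The overlapping genes of *Kif4* (*Pdzd11*), *Kif20a* (*Cdc23*) and *Ccna2* (*Exosc9*) were at 46.6 to 61.6, 24.8 to 63.2 and 31.4 to 54.4 TPM. That of *Ncapg* (*Lcorl*) was at 7.31 to 13.1 TPM, and those of *Cdc25c* and *Nek2* were at 2.29 TPM or below. Their part in the levels of these members was not tested.

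The 46 genes also varied together by well to a small degree. OSKA + 4OHT replicate 3 was the lowest of its group in 27 of the 46 genes and OSKA + 4OHT replicate 2 the highest in 22, and OSKA - 4OHT replicate 3 was the lowest of its group in 24. The median deviation from the group mean on the log2 scale was -0.19 in OSKA + 4OHT replicate 3 and 0.08 in replicate 2, against a median fold change of 0.89. The median coefficient of variation of the members was 18.2% without and 17.0% with 4OHT. The number of genes above 0 in the whole table was 15814 to 17692 in the OSKA - 4OHT wells and 17578 to 18230 in the OSKA + 4OHT wells. Each library adds up to 1000000 TPM, so the sequencing depth is unknown.

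**Figure D5:**
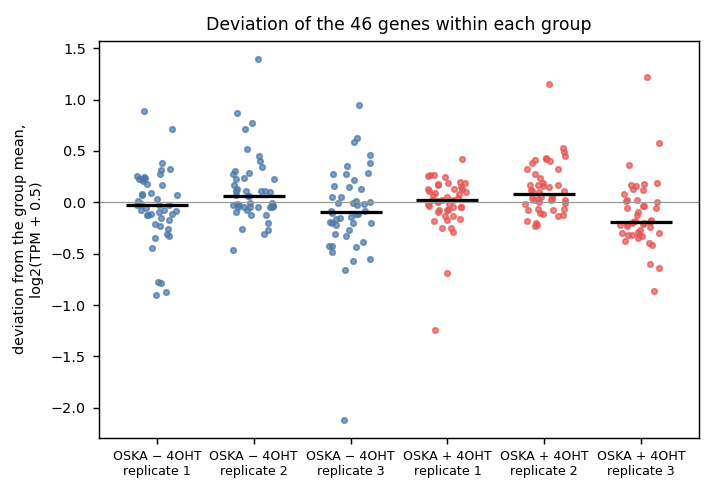
Deviation of each of the 46 genes from the mean of its own group in log2(TPM + 0.5), by well, with a line at the median of the well. Points at the far ends of the OSKA - 4OHT and OSKA + 4OHT wells include *Mad2l1*. The medians run from -0.19 in OSKA + 4OHT replicate 3 to 0.08 in OSKA + 4OHT replicate 2.

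Levels of cell type markers also differed between the groups. The summed level of 8 fibroblast markers was 4576 to 5280 TPM without and 2724 to 2866 TPM with 4OHT, with 2 of 8 called lower (*Col1a2* and *S100a4*, where 1.97% of all genes were) and 0 higher. *Col1a1*, *Col1a2* and *S100a4* make up most of that sum, and the other markers were mixed. *Thy1* was at 198, 208 and 133 TPM against 222, 268 and 389 TPM (log2 fold change 0.69, adjusted p = 0.203), *Fbln1* had a log2 fold change of 0.90 with overlapping groups, and *Pdgfra*, *Postn* and *Twist2* had -0.12, -0.10 and -0.30, also with overlap. The summed level of 8 markers of pluripotent cells was 28.2 to 39.2 TPM without and 93.8 to 115 TPM with 4OHT, with 5 of 8 called higher, where 3.52% of all genes were. Of the 8, *Dppa5a* and *Utf1* were listed at 0 in all 3 OSKA - 4OHT wells and *Nanog* in 2 of them. *Epcam* and *Fgf4* make up most of the sum without 4OHT. *Esrrb* (log2 fold change 0.82) and *Fgf4* (0.39) overlapped between the groups, and *Utf1* did not overlap but was not called. The summed level of 6 macrophage markers was 119.6 to 152 TPM against 76.8 to 87.0 TPM, with 1 of 6 called lower, where 1.97% of all genes were. That gene, *Lyz2*, was at 101, 90.1 and 94.3 TPM against 48.2, 46.5 and 60.7 TPM and makes up most of the sum, while *Cd68* had a log2 fold change of 0.34 and *Ptprc*, *Adgre1* and *Tyrobp* overlapped between the groups. *Csf1r* was lower in every OSKA + 4OHT well than in any OSKA - 4OHT well (log2 fold change -0.73, adjusted p = 0.392). The part of these differences in the levels of the G2 and mitosis genes was not tested.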

How the data were processed

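RNA was sequenced from 6 wells, 3 OSKA - 4OHT and 3 OSKA + 4OHT, at 10 dpi. The authors prepared stranded polyA libraries (KAPA), read 50 bases from one end, trimmed with Trim Galore and quantified with Salmon against mouse transcripts; versions and annotation release are not given in the sources used here. The deposited values are TPM per gene, scaled by the authors to 1000000 per well, so counts and depth were not recovered and a count model could not be fitted. The authors' table also holds their own edgeR log2 fold change, average level, F statistic and p-value, which were not used.

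Groups came from the sample labels. The 15382 genes averaging 1 TPM or more were fitted with limma-trend (limma 3.58.1, R 4.3.3) on log2(TPM + 0.5), OSKA + 4OHT against OSKA - 4OHT, with no block, and p-values were adjusted over all of them by Benjamini-Hochberg, with calls made under 0.05. Fold changes on this scale understate the change of low genes. With 3 wells a group an exact permutation test of a single value cannot go below 0.1, so none was run.

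The members, classes and lists were chosen with earlier results of these data known, and their counts are descriptions. All 46 members are named. From each other list the called genes with the largest rise and fall are named, and other names are marked. Symbols and positions are from GENCODE M21 (GRCm38), and promoters from RefSeq (GRCm38.p6). Similar transcripts were found with BLAST 2.17.0. Alternatives were other pseudocounts (0.1 and 2), filters (none and 5 TPM), median-of-ratios and quantile scaling, no variance trend, a replicate block, leaving out each well, a shorter promoter window, and, chosen after seeing the data, a robust variance prior and adding copies to members in proportion to length.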

Additional observations from a re-analysis of the deposited data

How the results depend on the processing

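Of the 46 genes, 14 were called higher, and 11 to 19 under the other pseudocounts, filters, scalings and variance priors. Median-of-ratios and quantile scaling moved the median of all genes by -0.11 and -0.15, with 12 members called under each. The median of the members was 0.75 under quantile scaling and 0.82 to 0.96 without 1 well. Leaving out a well gave 5 to 10 members called higher and 0 lower, 5 to 10 above 2-fold, and 175 to 465 of all genes in place of 845. Without 1 well, the log2 fold change of *Cdc25b* ran from -0.090 (without OSKA - 4OHT replicate 1) to 0.84, and that of *Mad2l1* from -0.59 (without OSKA - 4OHT replicate 3) to 1.17, with -0.14 without OSKA + 4OHT replicate 3. Other members ran widely without turning: *Bub1b* from 0.0076 to 1.01, *Foxm1* from 0.19 to 0.95, *Incenp* from 0.23 to 1.01 and *Ncapd2* from 0.48 to 1.21. With copies added by length, the ratio of *Mki67* went from 1.60 to 1.57 or 1.25.

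Among the other lists, 14 of the other G2 and mitosis genes were called, 7 with no filter, 9 under each of the scalings, 5 without the variance trend and 0 to 5 without 1 well. Of the APC/C genes 1 was called, and 0 with no filter, under each of the scalings, without the trend, with the robust prior and without any 1 well. Of the MuvB and DREAM factors 0 were called, but 1 at 5 TPM (*Mybl1*, higher), 1 under each of the scalings (*Tfdp2*, lower) and 0 to 1 without a well. Of the cohesin genes 0 were called in any of these fits. Of the G1/S genes 4 were called, 2 with no filter, 2 without the trend and 0 to 1 without a well.

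With a replicate block, 1 member (*Mybl2*, adjusted p = 0.0499, limma-trend) was called, 1 above 2-fold, and 47 of all genes, with 0 in the other G2 and mitosis, APC/C and G1/S lists. Correlations of same-numbered wells were 0.0235, 0.0341 and 0.0837, so the numbers were not taken to pair the wells, although 5 of 6 wells correlated best with their own number and, over the members, replicate 2 had the highest and replicate 3 the lowest median deviation in each group. The cause of these losses was not tested. Intervals here reflect 3 wells a group and no known depth.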
